A study of Homo sapiens with 12 samples.

Results

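MIA PaCa-2, an established human pancreatic cancer cell line, was exposed to 0.5 µM gemcitabine for 48 h in medium with either 2 or 40 mM L-glutamine, and the transcriptomes at both glutamine levels were compared. The comparison used 6 of the 12 libraries of the series, namely 3 cultures at 40 mM glutamine with drug and 3 at 2 mM glutamine with drug. The other 6 libraries, 3 at 2 mM and 3 at 40 mM without gemcitabine, supplied the glutamine response of untreated cells. All 12 libraries share the line, labelled WT, and the basal medium: cells were cultured in RPMI-1640, and glutamine was added back to glutamine-free RPMI 1640 for the experiment. The labels name no group in which another solute was raised to the same concentration, and they cover 1 line, 1 drug dose and 1 time. By its title, the study concerns the effect of high-dose glutamine on amino acid carriers and on the response of pancreatic cancer to chemotherapy.

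Glutamine is the most abundant free amino acid in blood. Cells take it up through carriers such as SLC1A5 and turn it into glutamate, and it gives nitrogen to purines, pyrimidines and amino sugars. Gemcitabine is a deoxycytidine analogue that enters cells through nucleoside carriers, is phosphorylated by deoxycytidine kinase, and stalls DNA replication once it is built into DNA. Cells in which replication stalls halt in S phase, and DNA fragments that reach the cytosol can switch on interferon-stimulated genes, which are otherwise induced by secreted interferon through factors of the STAT and IRF families.

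Reads in listed genes ranged from 21723094 to 32811746 over the 6 drug-treated libraries, with a median of 713 reads per tested gene. Expression is given in reads per 1000000 reads (RPM), and differences are on the scale of log2(RPM + 1), which understates changes at low levels. On the first principal component of the 6 libraries, which held 44.8% of the variance, the 3 cultures at 2 mM lay between −10.2 and −8.85 and the 3 at 40 mM between 8.46 and 11.1. The second component held 16.0% and spread mainly the cultures at 40 mM, from −10.5 to 9.38. The epithelial keratins KRT8, KRT18 and KRT19 and the mesenchymal filament gene VIM were present in all 6 libraries. Of genes of other cell types, the endothelial cadherin CDH5 stayed between 0.325 and 0.592 RPM. The collagen COL1A2, a gene also used as a fibroblast marker, was at 582 to 702 RPM, while its partner COL1A1 was at 0.879 to 1.61 RPM. COL3A1, another collagen used as such a marker, was at 11.1 to 13.3 RPM. PTPRC, CD3E, PECAM1, VWF, DCN, INS, GCG, PRSS1, CPA1, CTRB1 and CDKN2A were not analysed here.

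Of 12789 genes tested, 2765 (21.6%) differed between 40 and 2 mM glutamine in drug-treated cells (limma, Benjamini-Hochberg adjusted p under 0.05), and the words rose and fell are used below only for genes called this way in the comparison at hand. 1102 genes (8.62%) rose and 1663 (13.0%) fell. In 4788 genes (37.4%), all 3 libraries of one level lay above all 3 of the other. Most differences were modest, with a median absolute value of 0.20 among called genes: 75 genes rose and 44 fell by 0.5 or more, and 1 gene in each direction changed by 2-fold or more. The median over all tested genes was −0.0015. The balance of rises and falls depended on the scaling: rises made up 39.9% of calls with the deposited scaling, 50.1% after quantile normalization, 68.2% when only library totals were equalised, and 50.3% once the trends with expression level, GC content and transcript length were removed. Genes that rose had a median GC content of 44.6% and a median transcript length of 4248 bases, against 53.9% and 3117 bases in genes that fell. Fewer cells in a state and less RNA per cell cannot be told apart in these bulk libraries.

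**Figure D1:**
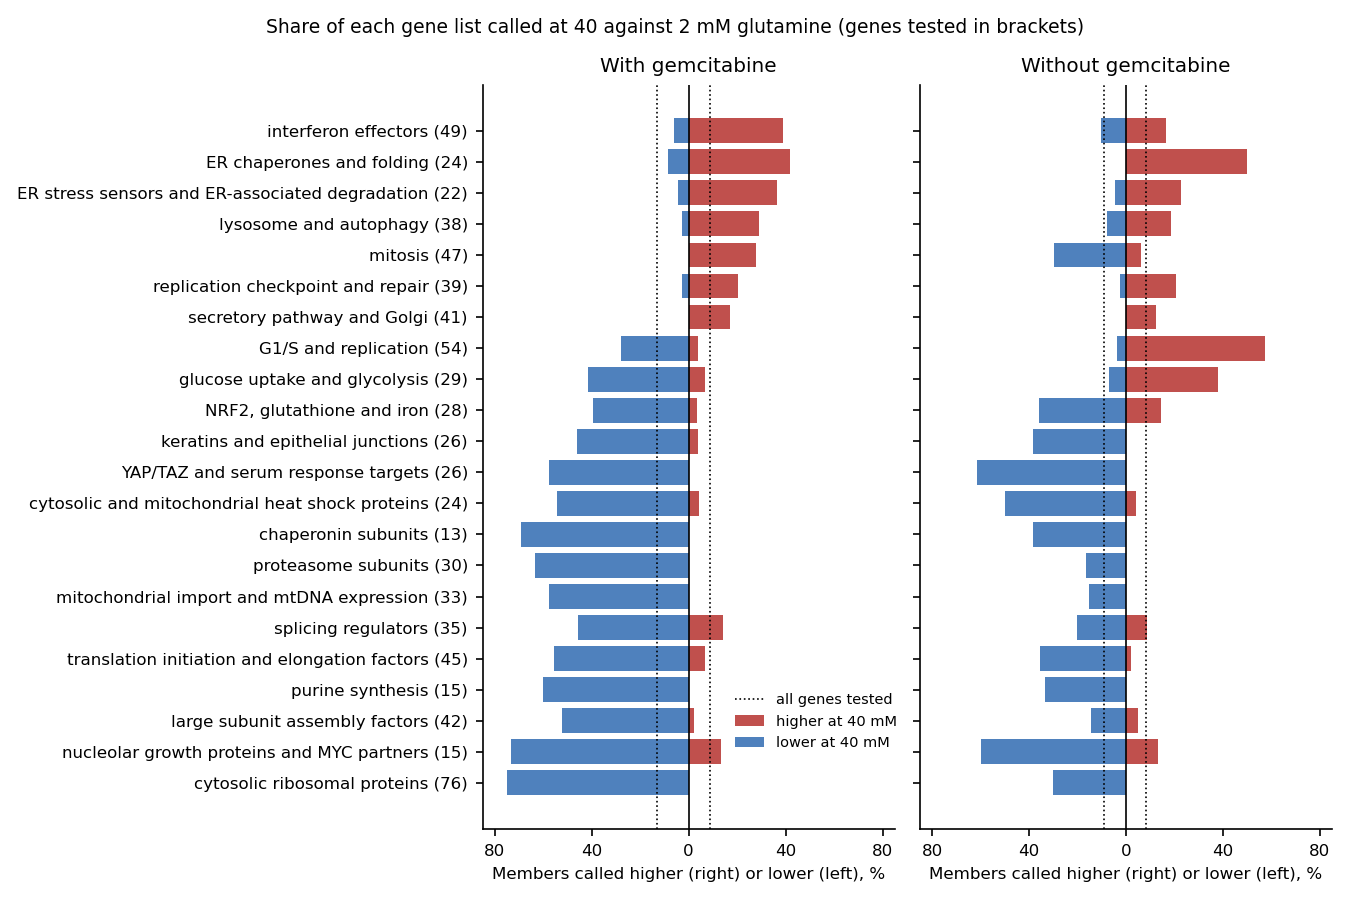
Share of the tested members of 22 gene lists called higher (red, right) or lower (blue, left) at 40 against 2 mM glutamine, with gemcitabine on the left and without on the right, in percent; dotted lines give the shares over all 12789 tested genes. Interferon, ER and lysosome lists lie mainly to the right of 0 with gemcitabine, and ribosome, proteasome, heat shock and cytoskeleton lists mainly to the left. The lists for replication and glycolysis lie mainly to the left with gemcitabine and to the right without, and the mitosis list does the reverse.

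The single gene with the largest rise was H2BC12, which encodes a histone H2B. It was at 7.04, 9.06 and 5.83 RPM at 2 mM and 18.9, 14.1 and 15.9 RPM at 40 mM, a difference of 1.07 ± 0.12 (SE, adjusted p = 1.03e-07), and the lowest culture at 40 mM was above the highest at 2 mM. Histone H2B genes are near-identical, so the gene behind these reads is uncertain. TSPYL2, a nucleosome assembly protein, was at 37.3, 37.7 and 37.5 RPM at 2 mM and 57.9, 58.4 and 57.3 RPM at 40 mM and rose by 0.61 ± 0.047 (SE, adjusted p = 2.02e-11). IFIH1, which encodes the double-stranded RNA sensor MDA5, was at 18.7, 16.4 and 17.9 RPM at 2 mM and 30.5, 27.4 and 28.1 RPM at 40 mM and rose by 0.67. C1S, a protease that starts the classical complement cascade, was at 7.73, 6.46 and 7.06 RPM at 2 mM and 11.0, 10.8 and 11.4 RPM at 40 mM and rose by 0.59. C1R, its partner protease, rose by 0.60. In each of these 5 genes both groups of cultures were apart, which the choice of the largest changes required. The remaining largest rises were LOC101930276 (0.70), a long non-coding RNA, CES4A (0.69), a carboxylesterase, the zinc finger genes ZNF460 (0.69) and ZNF425 (0.59), BFSP1 (0.66), a filament protein of the eye lens, ERMAP (0.65), a blood group antigen of red cells, and DDX60, described below.

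The largest fall belonged to TNS4, a tensin that links integrins to the cytoskeleton. It was at 7.11, 7.01 and 6.32 RPM at 2 mM and 2.44, 3.48 and 2.84 RPM at 40 mM, a difference of −1.003 ± 0.13 (SE, adjusted p = 1.09e-06). DHRS2, a mitochondrial short-chain reductase, was at 60.6, 56.6 and 53.4 RPM at 2 mM and 30.8, 30.6 and 34.9 RPM at 40 mM and fell with a difference of −0.81 ± 0.06 (SE, adjusted p = 9.57e-12). L1CAM, a neural adhesion molecule, was at 47.7, 41.4 and 47.7 RPM at 2 mM and 27.6, 29.8 and 30.8 RPM at 40 mM (−0.61), and NKD1, an inhibitor of Wnt signalling that is itself a Wnt target, was at 8.64, 8.92 and 9.68 RPM at 2 mM and 5.12, 5.22 and 4.58 RPM at 40 mM (−0.76). In all 4 the cultures at 40 mM were below every culture at 2 mM, which the choice of the largest changes required here too. The list of largest falls was completed by the secreted proteins METRNL (−0.75) and BMP6 (−0.66), the phosphodiesterase PDE4A (−0.71), the transcription factors HES2 (−0.66) and SOX8 (−0.62), the ephrin EFNA3 (−0.63), LRRC49 (−0.61) and CACNG8 (−0.60), a regulator of glutamate receptor channels.

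Interferon-stimulated effector genes formed the list with the largest positive median: of 49 tested, 19 rose and 3 fell with glutamine in drug-treated cells, and the median difference was 0.20. Without the drug, 8 rose and 5 fell (median 0.060), against 8.41% and 9.12% of all tested genes. The difference between the glutamine responses with and without drug was called in 4 of the 49, all positive. Over all tested genes it was called in 2.20%. IFITM1, which fell with and without drug, is among these 4. The rises spanned several arms of the response, from RNA-binding and RNA-degrading effectors (IFIT1, IFIT2, IFIT3, OAS1, OAS2, OAS3, OASL, DDX60) to the ISG15 conjugation system (ISG15, HERC5, HERC6), the PARP9 and DTX3L complex, PARP12, PARP14, IFI6, APOL6, LGALS3BP and the death ligand TNFSF10. The call of IFI6 (0.27) was lost without 2 mM replicate 3, a fit in which 16 effectors rose. Between 16 and 21 rose when a drug-treated culture was left out. After quantile normalization or trend removal 17 rose, and with library totals only 24.

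Upstream of the effectors the picture was mixed. Among 16 nucleic acid sensors and adaptors, 3 rose (18.75%) and 2 fell (12.5%), against 8.62% and 13.0% of all tested genes (5 and 2 genes with library totals only). The rises were those of the RIG-I-like receptors: IFIH1, DDX58 (0.38), which encodes RIG-I, and DHX58 (0.26), which encodes LGP2. UNC93B1, which escorts Toll-like receptors to endosomes, was at 69.1, 67.4 and 66.2 RPM at 2 mM and 48.9, 46.2 and 49.2 RPM at 40 mM and fell with a difference of −0.48 ± 0.044 (SE, adjusted p = 8.82e-10), and TRIM25, a ubiquitin ligase that acts on RIG-I, fell as well (−0.17). Among 21 STAT and IRF factors and receptors, 5 rose and 4 fell. Among the rises were IRF9 (0.31), IRF1 (0.23), STAT3 (0.11) and the receptor chain IFNAR1 (0.12), while the feedback inhibitor SOCS3 (−0.44), STAT6 (−0.20), STAT5B (−0.12) and IRF3 (−0.20) fell. The call of STAT5B was lost without 2 mM replicate 1, 2 or 3 and without 40 mM replicate 1 or 2, and also with all 3 other scalings, the replicate block and 3 minor settings (a pseudocount of 0.25, no filter and robust moderation). Those of IFNAR1 (without 2 mM replicate 1, 2 or 3 or 40 mM replicate 1 or 3), IRF1 (2 mM replicate 2 or 3 or 40 mM replicate 1 or 3), DHX58 (2 mM replicate 1 or 3 or 40 mM replicate 1) and IRF3 (2 mM replicate 2) also rested on single cultures. Without 2 mM replicate 2, 3 of this list rose and 2 fell; without 2 mM replicate 3 or 40 mM replicate 1, 3 rose. The MHC class I presentation list, which interferon also raises, had 3 rises (20%) and no falls among 15 genes (median 0.032). Without drug, 5 of the 15 rose and none fell (median 0.086), and the difference between both responses was called in none.

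IFIT1, which binds RNA that lacks a host cap and blocks its translation, was at 149, 140.2 and 147 RPM at 2 mM and 201, 183 and 195 RPM at 40 mM in drug-treated cells, a difference of 0.41 ± 0.042 (SE, adjusted p = 1.37e-08). Without drug it was at 77.7, 76.8 and 82.7 RPM at 2 mM and 80.2, 81.2 and 74.5 RPM at 40 mM, a difference of −0.0071. The groups were apart with drug and overlapped without it, and the glutamine response with drug exceeded that without by 0.41 ± 0.06 (SE, adjusted p = 0.000112). DDX60, a helicase that assists RIG-I, was at 42.1, 45.6 and 41.3 RPM at 2 mM and 66.7, 65.2 and 65.1 RPM at 40 mM and rose by 0.60 ± 0.082 (SE, adjusted p = 1.63e-06). OAS3, a synthetase of the messenger that activates RNase L, was at 43.6, 47.6 and 42.7 RPM at 2 mM and 67.2, 65.8 and 56.5 RPM at 40 mM and rose by 0.49 ± 0.064 (SE). ISG15, the ubiquitin-like modifier, was at 139, 136 and 132 RPM at 2 mM and 168, 165 and 180.1 RPM at 40 mM and rose by 0.34 ± 0.05 (SE). None of these genes had a culture at 40 mM below one at 2 mM. The difference between the responses of DDX60 with and without drug was 0.46 ± 0.12 (SE, adjusted p = 0.0264); that call was lost without 2 mM replicate 1 or 3 and without 40 mM replicate 1 or 2.

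The 3 IFITM genes, membrane proteins that block virus entry, went the other way. IFITM2 was at 165, 158 and 160.3 RPM at 2 mM and 139, 130.3 and 133 RPM at 40 mM, a difference of −0.26 ± 0.034 (SE, adjusted p = 9.6e-07). IFITM1 was at 100.2, 101 and 97.5 RPM at 2 mM and 86.5, 78.6 and 85.6 RPM at 40 mM and IFITM3 at 182, 185 and 196 RPM at 2 mM and 151, 167 and 159.7 RPM at 40 mM. All cultures at 40 mM were below all at 2 mM for each gene, with differences of −0.25 for IFITM1 and −0.24 for IFITM3. IFITM1 fell further without drug (−0.57), and its interaction was 0.32 ± 0.065 (SE, adjusted p = 0.00584). These genes are near-identical, so reads may have been split among them.

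**Figure D2:**
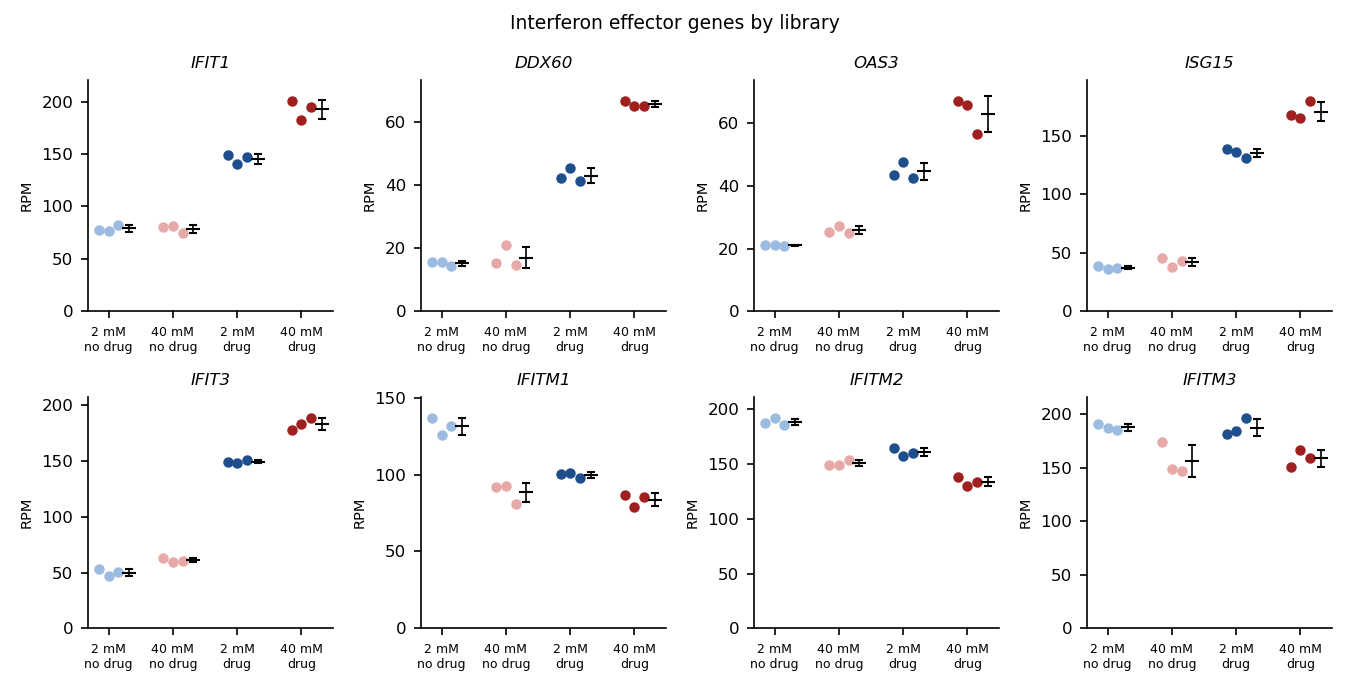
Expression (RPM, axis from 0) of 8 interferon effectors in each of the 12 libraries; points are libraries, and the bar beside each group is its mean with SD (n = 3). In drug-treated cells the 5 genes IFIT1, DDX60, OAS3, ISG15 and IFIT3 are higher at 40 mM in every culture and the 3 IFITM genes are lower.

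The interferon-stimulated response element is the DNA sequence that the interferon-activated complex with STAT2 and IRF9 binds, and a core form, GAAANNGAA or TTCNNTTTC on the other strand, was searched in the 250 bases before the start of each gene. RefSeq windows (GRCh38.p14) were matched by symbol for 10053 of the 12789 tested genes. Of the effectors that rose, 11 of 15 with a window held the element (73.3%), as did 11 of 18 effectors that were not called (61.1%), both of the 2 that fell and had a window, and 539 of all 10053 windows (5.36%). The element was thus frequent in the list whatever its members did. Stretches are shown for 4 effectors that rose and 2 that fell, upstream of the gene start, 5′ to 3′ on the strand of the gene; capitals mark the element.
IFIT1, chr10:89392468-89392569, plus strand: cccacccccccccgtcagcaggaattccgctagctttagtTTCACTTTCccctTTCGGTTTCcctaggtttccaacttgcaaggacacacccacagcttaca
ISG15, chr1:1013344-1013444, plus strand: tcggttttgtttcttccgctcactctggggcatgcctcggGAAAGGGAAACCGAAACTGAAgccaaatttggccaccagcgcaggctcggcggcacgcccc
OAS3, chr12:112938291-112938473, plus strand: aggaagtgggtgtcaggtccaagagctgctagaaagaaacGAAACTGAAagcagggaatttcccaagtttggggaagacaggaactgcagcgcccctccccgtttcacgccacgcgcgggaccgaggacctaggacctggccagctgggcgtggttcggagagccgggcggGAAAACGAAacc
DDX60, chr4:168318757-168318880, minus strand: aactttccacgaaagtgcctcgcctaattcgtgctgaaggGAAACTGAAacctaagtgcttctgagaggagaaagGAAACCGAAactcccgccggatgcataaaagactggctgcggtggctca
IFITM1, chr11:313960-314039, plus strand: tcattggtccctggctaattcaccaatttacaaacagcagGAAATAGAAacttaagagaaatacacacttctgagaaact
IFITM3, chr11:320861-320952, minus strand: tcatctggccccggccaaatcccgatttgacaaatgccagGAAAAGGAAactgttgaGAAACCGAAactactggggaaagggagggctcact
ISG15 holds 3 matches that overlap in 1 run, IFIT1, OAS3, DDX60 and IFITM3 hold 2 each, and IFITM1 holds 1. A match describes letters in a window and does not show that a factor binds there.

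Genes of protein folding split by compartment. In the endoplasmic reticulum (ER), 10 of 24 chaperones and folding enzymes rose and 2 fell in drug-treated cells (median 0.11), and without drug 12 rose and none fell (median 0.14). In the cytosol and mitochondria, 1 of 24 heat shock proteins rose and 13 fell (median −0.16), and without drug 1 rose and 12 fell (median −0.11). HSPA5, the ER chaperone BiP, was at 842, 849 and 825 RPM at 2 mM and 989, 963 and 995 RPM at 40 mM and rose by 0.23 ± 0.026 (SE, adjusted p = 1.03e-07). CALR, the chaperone calreticulin, was at 1254, 1251 and 1262 RPM at 2 mM and 1389, 1410.0 and 1462 RPM at 40 mM and rose by 0.18 ± 0.027 (SE, adjusted p = 1.15e-05). HSP90B1, the ER form of HSP90, rose by 0.18 ± 0.027 (SE), while its cytosolic relatives fell: HSP90AA1 was at 3574, 3653 and 3660.1 RPM at 2 mM and 3056, 3017 and 2978 RPM at 40 mM (−0.27 ± 0.026 (SE)) and HSP90AB1 at 3332, 3319.6 and 3316 RPM at 2 mM and 2814, 2782 and 2775 RPM at 40 mM (−0.25 ± 0.026 (SE)). All cultures at 40 mM were above those at 2 mM for the ER genes and below them for the cytosolic ones. The call of HSP90AA1 was lost under quantile normalization. HSPD1, the mitochondrial chaperonin, was at 1238, 1288 and 1236 RPM at 2 mM and 1063, 1056 and 1050.2 RPM at 40 mM and fell with a difference of −0.25 ± 0.027 (SE, adjusted p = 3.31e-08). FKBP4, a co-chaperone of HSP90, also fell (−0.23), as did HSPA8, HSPA9, HSPB1, STIP1, AHSA1, TRAP1, DNAJB6 and HSF1, the factor that drives the heat shock response. DNAJB4 was the one heat shock gene that rose (0.41). Under each of the 3 other scalings 3 rose and 9 to 12 fell. As a share of reads, the heat shock list held 1.45% ± 0.0083 (SD, n = 3) at 2 mM and 1.31% ± 0.0082 at 40 mM; the exact two-sided permutation test gave p = 0.1, the smallest p that 3 against 3 allows.

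Other ER genes that rose were PDIA4 (0.17), PDIA3, P4HB, HYOU1, DNAJC10, CRELD2 and DNAJB9 (0.43), folding enzymes and co-chaperones; SDF2L1 (−0.42), a chaperone partner, and FKBP14 fell. Among 22 ER stress sensors and genes of ER-associated degradation, 8 rose and 1 fell (median 0.12): EDEM3 (0.23), EDEM1, SEL1L (0.19), DERL1 and HERPUD1, which extract or mark misfolded proteins, the sensor ATF6 (0.17), XBP1 and DDIT3 rose, and UFD1 fell. Only 4 of them rose without 2 mM replicate 1, 2 mM replicate 2 or 40 mM replicate 3, and 5 without 40 mM replicate 1. The calls of XBP1, CRELD2 and DDIT3 were among those lost in such fits. The ER stress response element, CCAAT and CCACG with 9 bases between, was found in 5 of 16 called-higher genes of these 2 ER lists with a RefSeq window (31.2%), in 2 of 24 not called (8.33%), and in 14 of all 10053 windows (0.139%). Stretches of 3 ER genes that rose show the element in capitals, in the same orientation as above.
HSPA5, chr9:125241351-125241449, minus strand: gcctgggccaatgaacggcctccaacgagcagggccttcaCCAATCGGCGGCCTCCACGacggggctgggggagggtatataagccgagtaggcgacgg
HSP90B1, chr12:103930176-103930379, plus strand: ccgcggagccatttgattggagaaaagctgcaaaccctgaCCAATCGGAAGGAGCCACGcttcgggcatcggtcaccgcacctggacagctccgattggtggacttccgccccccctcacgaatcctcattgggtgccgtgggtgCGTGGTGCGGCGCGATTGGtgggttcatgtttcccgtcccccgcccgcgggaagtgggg
CALR, chr19:12938359-12938442, plus strand: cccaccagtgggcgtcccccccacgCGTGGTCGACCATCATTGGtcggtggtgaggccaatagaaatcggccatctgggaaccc
HSP90B1 holds the element once on each strand.

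Further protein quality control genes fell. Of 13 subunits of the cytosolic chaperonin and its partner prefoldin, 9 fell and none rose (median −0.15); TCP1, its first subunit, was at 459.6, 471 and 464 RPM at 2 mM and 394, 394 and 396 RPM at 40 mM (−0.24 ± 0.031 (SE)), with both groups apart. Of 30 proteasome subunits, 19 fell and none rose (median −0.11), led by PSMD3 (−0.24), PSMD4 (−0.18), PSMC3 (−0.19) and PSMB7 (−0.19). These 2 lists depended on scaling and on single cultures: 3 chaperonin and 9 proteasome genes fell after quantile normalization, 6 proteasome genes with library totals only, and 5 and 12 after removing the level, GC and length trends. The proteasome count was 12 without 2 mM replicate 2, 11 without 2 mM replicate 3, 10 without 40 mM replicate 1 and 12 without 40 mM replicate 2.

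Keratin genes fell with drug by more than most called genes. KRT18, the filament partner of KRT8 in simple epithelia, was at 1491, 1603 and 1579.7 RPM at 2 mM and 1015, 1082 and 1015 RPM at 40 mM, a difference of −0.59 ± 0.035 (SE, adjusted p = 5.19e-14). KRT8 was at 2357, 2321 and 2276 RPM at 2 mM and 1695, 1703 and 1699.5 RPM at 40 mM, a difference of −0.45 ± 0.026 (SE, adjusted p = 2.83e-14). KRT19, a ductal keratin, was at 288, 264 and 278 RPM at 2 mM and 199, 196 and 211 RPM at 40 mM (−0.45 ± 0.035 (SE)). In all 3 the highest culture at 40 mM was far below the lowest at 2 mM. Of 26 keratin and junction genes, 12 fell and 1 rose (median −0.14); the tight junction claudins CLDN4 (−0.33) and CLDN1, the desmosome genes PKP2, PKP3, DSG2 and DSP, the surface protein EMP1 (−0.23), KRT80 and ITGB4 were the other falls, and CLDN12 rose. Without drug 10 fell and none rose (median −0.10).

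Targets of YAP/TAZ and of the serum response factor, which respond to actin tension and cell spreading, fell together: 15 of 26 fell and none rose with drug (median −0.19), and 16 fell and none rose without (median −0.17). ACTG1, cytoplasmic gamma actin, was at 4539, 4426 and 4493 RPM at 2 mM and 3571, 3577 and 3550.4 RPM at 40 mM, a difference of −0.33 ± 0.025 (SE, adjusted p = 1.26e-11). TAGLN2 (−0.28), TPM4 (−0.22), CNN2, VCL, FLNA, ACTN4 and ZYX (−0.28) encode actin-binding proteins, AMOTL2 (−0.28), AJUBA (−0.42), LATS2 and CCN1 (−0.24) are YAP/TAZ targets or regulators, and TEAD4 and SRF themselves fell (−0.27 and −0.21). ACTB was at 8816, 8557 and 8516 RPM at 2 mM and 7535, 7501 and 7476 RPM at 40 mM and also fell (−0.20), but its difference was 0 after quantile normalization and its call was lost after removing the level, GC and length trends. The count of falls for the list stayed between 14 and 15 when any single drug-treated culture was left out, with 1 rise without 40 mM replicate 3. It had 12 falls and 2 rises after quantile normalization, 13 and 2 with library totals only, and 11 and 1 after trend removal. Immediate-early genes and MAPK feedback genes had 7 falls and 1 rise among 34. With library totals only, 4 fell and 3 rose, and the median was 0.0056. FOSL1, an AP-1 subunit, was at 183, 191 and 182 RPM at 2 mM and 156, 152 and 140.1 RPM at 40 mM (−0.31), and the ERK phosphatase DUSP7 had −0.37. Mesenchymal and matrix genes did not move one way: 7 of 23 rose, among them the integrins ITGAV (0.28) and ITGB1 (0.15), and 5 fell, among them L1CAM and the receptor kinase AXL (−0.31). The 3 other scalings gave 9 rises and 3 falls (quantile normalization), 9 and 2 (library totals only) and 8 and 2 (trend removal). Only 3 of that list rose without 2 mM replicate 2, and 4 without 2 mM replicate 1, 40 mM replicate 2 or 40 mM replicate 3.

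**Figure D3:**
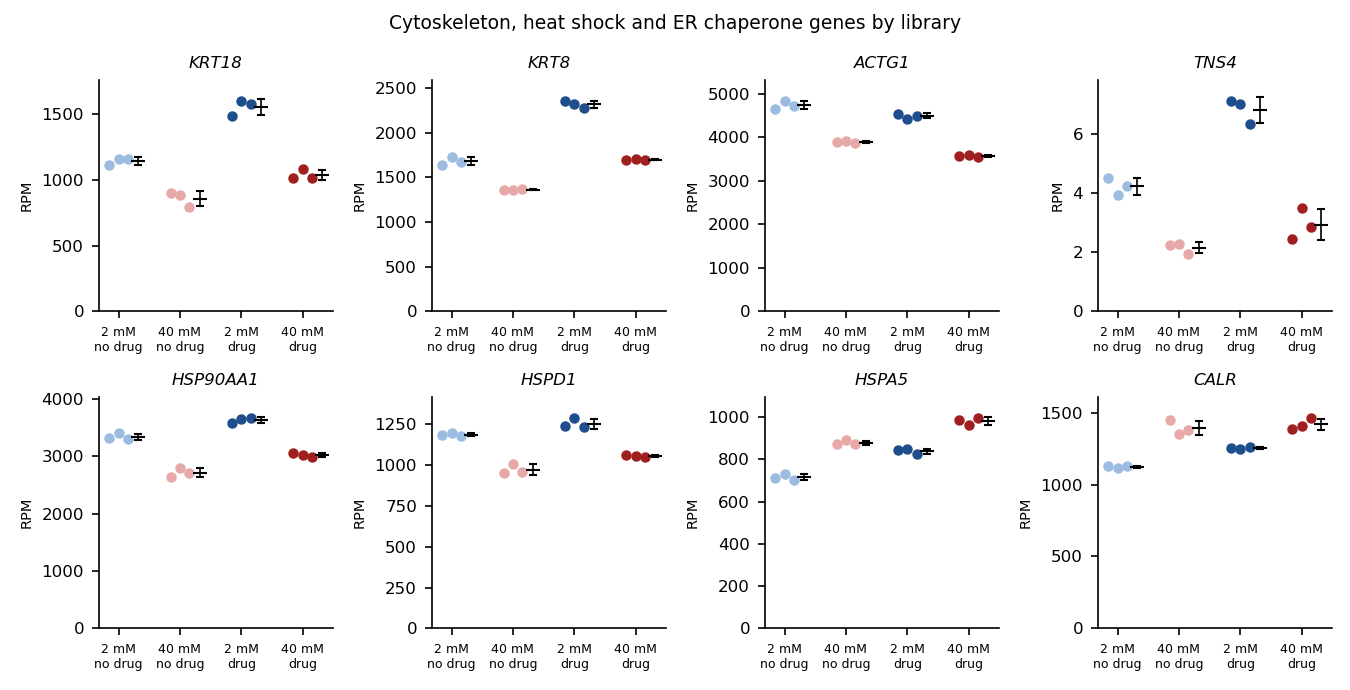
Expression (RPM, axis from 0) of 4 cytoskeleton genes and 4 chaperones in each of the 12 libraries; points are libraries, and the bar beside each group is its mean with SD (n = 3). KRT18, KRT8, ACTG1, TNS4, HSP90AA1 and HSPD1 are lower and HSPA5 and CALR are higher at 40 mM in every pair of drug-treated cultures.

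Growth genes fell widely. MYC, the transcription factor that drives ribosome production, was at 222, 232 and 229.9 RPM at 2 mM and 185, 189 and 189 RPM at 40 mM, a difference of −0.28 ± 0.031 (SE, adjusted p = 4.73e-08), with every culture at 40 mM below every culture at 2 mM. Without drug the difference was −0.10. NPM1, a nucleolar chaperone of ribosome assembly, was at 1950.4, 1949 and 2007 RPM at 2 mM and 1633, 1596 and 1598 RPM at 40 mM (−0.29 ± 0.026 (SE)), and FBL, the RNA methylase of box C/D particles, was at 217, 226 and 230.3 RPM at 2 mM and 181, 179 and 178 RPM at 40 mM (−0.32 ± 0.034 (SE)). The lists followed in the same direction: 11 of 15 nucleolar growth genes and MYC partners fell and 2 rose (median −0.21), 7 of 11 core proteins of small nucleolar particles fell and none rose (median −0.14), 22 of 42 large subunit assembly factors fell and 1 rose (median −0.11), and 13 of 39 genes of the small subunit processome fell and 1 rose (median −0.073). Of 13 RNA polymerase I genes 1 fell, UBTF (−0.12), and its call was lost without 2 mM replicate 2, 2 mM replicate 3 or 40 mM replicate 1. EBNA1BP2, a large subunit assembly factor, was the strongest single member (−0.47 ± 0.032 (SE)). After removal of the level, GC and length trends, 7 nucleolar growth genes and 4 nucleolar particle genes fell, and 14 large subunit factors fell with library totals only.

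Of 76 cytosolic ribosomal protein genes, 57 fell and none rose with drug (median −0.14), against 23 falls and no rise without drug (median −0.062). The difference between both responses was called in none of the 76. FAU (−0.24), RPS26 (−0.24), RPL24 (−0.20) and RPL5 (−0.19) had the smallest p. Ribosomal protein genes have many near-identical copies, so single values are uncertain. Their share of reads was 6.38% ± 0.12 (SD, n = 3) at 2 mM and 6.10% ± 0.13 at 40 mM (exact two-sided permutation p = 0.1, the smallest possible). This count depended on scaling: 14 fell (RPL5 not among them) and 4 rose after quantile normalization, 30 fell and 2 rose with library totals only, and 14 fell and 7 rose after removing the trends. Translation initiation and elongation factors had 25 falls and 3 rises among 45 (median −0.11), with EIF2S3 (−0.25), EIF4H (−0.22), EIF5A (−0.20) and EIF4G2 (−0.20) in front; 12, 13 and 14 fell under those 3 scalings, and EIF5A lost its call after removing the trends. The E-box CACGTG, which MYC binds, was in 5 of 45 ribosome biogenesis genes that fell (11.1%), in 8 of 51 not called (15.7%), in 2 of 4 that rose and in 905 of all 10053 windows (9.002%).

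Genes of pathways that use glutamine did not move together. Of 15 purine synthesis genes 9 fell and none rose (median −0.13). IMPDH2, the rate-limiting enzyme of guanine nucleotide synthesis, was at 299, 303 and 305 RPM at 2 mM and 237, 243 and 239 RPM at 40 mM, a difference of −0.33 ± 0.03 (SE, adjusted p = 8.3e-10); IMPDH1 (−0.23), PRPS2 (−0.20) and PAICS (−0.16) followed. After quantile normalization 4 fell, PAICS not among them, and with library totals only 5 fell. Pyrimidine genes had 3 falls in 13, DUT and DHODH among them, and that count was 1 without 2 mM replicate 2 or 3 and 0 without 40 mM replicate 3. GFPT2, an amidotransferase that uses glutamine to make amino sugars, was at 34.3, 32.6 and 34.1 RPM at 2 mM and 26.1, 23.5 and 24.5 RPM at 40 mM (−0.43 ± 0.068 (SE)), while its relative GFPT1 rose (0.16). Of 23 genes of glutamine, glutamate and proline metabolism, 2 rose (8.70%) and 5 fell (21.7%), against 8.62% and 13.0% of all tested genes. Under quantile normalization or with library totals only, 2 rose and 3 fell. In that list GOT1, an aspartate aminotransferase, rose (0.25), and PYCR1, which makes proline, fell (−0.24). GLUL, glutamine synthetase, had a difference of 0.22 ± 0.17 (SE) at 1 to 3 RPM and did not pass the test. Of 36 glycosylation and hexosamine genes, which include amino sugar synthesis, 10 rose and 5 fell, with 6 rises without 40 mM replicate 3.

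Amino acid carriers did not move as a group, with 3 rises (13.0%) and 4 falls (17.4%) among 23 (median −0.019). Over all tested genes the shares were 8.62% and 13.0%. SLC7A5, the large neutral amino acid carrier that exchanges glutamine for leucine, was at 431, 444 and 422 RPM at 2 mM and 369, 371 and 365 RPM at 40 mM (−0.23 ± 0.032 (SE)). SLC1A5, the main glutamine carrier, was at 241, 242 and 242 RPM at 2 mM and 209.8, 212 and 214 RPM at 40 mM (−0.19 ± 0.032 (SE)). Both had every culture at 40 mM below every culture at 2 mM, and SLC43A1 (−0.33), another neutral amino acid carrier, and SLC25A22 (−0.26), a mitochondrial glutamate carrier, fell too. SLC1A4, a carrier of alanine and serine, was at 9.14, 9.52 and 9.81 RPM at 2 mM and 12.5, 13.3 and 12.9 RPM at 40 mM and rose by 0.41 ± 0.11 (SE). SLC36A4, a proline and tryptophan carrier, was at 18.1, 18.4 and 19.2 RPM at 2 mM and 24.9, 25.8 and 23.6 RPM at 40 mM and rose by 0.39 ± 0.071 (SE); the lysosomal carrier SLC38A7 rose by 0.16. The call of SLC38A7 was lost without 2 mM replicate 1 or 2 and without 40 mM replicate 1 or 2, and that of SLC25A22 without 2 mM replicate 2. SLC38A1 (−0.087 ± 0.034 (SE)), SLC38A2 (−0.019 ± 0.027 (SE)), SLC7A11 (0.036 ± 0.1 (SE)) and SLC3A2 (0.042 ± 0.039 (SE)) did not pass the test. The amino acid response that ATF4 drives had 3 rises and 3 falls among 24 genes (12.5% each way, against 8.62% and 13.0% of all tested genes). It had 1 fall without 2 mM replicate 1, without 40 mM replicate 3 or with library totals only. ATF4 itself had a difference of −0.0091 ± 0.039 (SE) and ASNS, asparagine synthetase, of 0.24 ± 0.15 (SE), neither of which passed. The ATF4 element TGATGNAA was in none of the 6 list members that changed and had a window, in 3 of 16 not called, and in 1.36% of all windows. WARS1, the tryptophan tRNA synthetase that interferon also induces, was at 570.3, 566 and 584 RPM at 2 mM and 724, 726 and 732 RPM at 40 mM and rose by 0.34 ± 0.028 (SE, adjusted p = 8.17e-11).

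Genes of osmotic adaptation were counted because 40 mM glutamine adds solute. Of 20, 3 rose (15%) and none fell, against 8.62% and 13.0% of all tested genes. SLC5A3, the inositol carrier, was at 93.3, 79.3 and 82.3 RPM at 2 mM and 107, 106 and 112 RPM at 40 mM and rose by 0.34 ± 0.048 (SE, adjusted p = 2.44e-06). AKR1B1, which makes sorbitol, rose by 0.31, and HSPA4L by 0.19. The cultures of SLC5A3 were apart, and it also rose without drug (0.25). The call of AKR1B1 was lost without 2 mM replicate 1 or 3 or 40 mM replicate 3, and that of HSPA4L without 2 mM replicate 1 or 40 mM replicate 2 and after trend removal. With quantile normalization 5 of the list rose and with library totals only 6.

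Cell cycle genes responded to glutamine differently in drug-treated and untreated cells. Of 54 genes that act at G1/S or copy DNA, 15 fell and 2 rose at 40 mM in drug-treated cells (median −0.062), but 31 rose and 2 fell in untreated cells (median 0.12), and the difference between both responses was called, and negative, in 19. Of 47 mitotic genes, 13 rose and none fell with drug (median 0.063), 3 rose and 14 fell without (median −0.050), and the difference was called, and positive, in 10. Over all tested genes the difference was called in 281 (2.20%), 93 of them positive and 188 negative. PCNA, the sliding clamp of DNA polymerase, was at 155, 162 and 161 RPM at 2 mM and 147, 144 and 143 RPM at 40 mM with drug and 98.1, 100.2 and 100.3 RPM at 2 mM and 112, 115 and 119 RPM at 40 mM without. It thus fell with drug (−0.14 ± 0.036 (SE)) and rose without (0.21), with no overlap in either, and the difference was −0.34 ± 0.05 (SE, adjusted p = 0.000119). MCM5, a subunit of the replicative helicase, was at 179.6, 181 and 175 RPM at 2 mM and 162, 168 and 158 RPM at 40 mM (−0.13) with drug and had 0.25 without; the difference was −0.38 ± 0.053 (SE, adjusted p = 6.37e-05). CDC6, which loads that helicase, was at 101, 107 and 103 RPM at 2 mM and 113, 109.6 and 102 RPM at 40 mM with drug, where the groups overlapped (0.059, adjusted p = 0.417 by limma), and rose by 0.52 without (−0.46). CHAF1A, a chaperone that places histones behind the fork, and UHRF1, which maintains DNA methylation there, fell with drug (−0.25 and −0.20) and rose without (0.13 and 0.12).

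In drug-treated cells the falls of PCNA and MCM5 were lost with library totals only and after removing the trends, that of MCM5 also after quantile normalization and without 40 mM replicate 3, and 8, 6 and 8 genes of the list fell under quantile normalization, library totals only and trend removal. Their called differences between the responses with and without drug were kept under each alternative run, and the count for the list was 14, 15 and 17 under those 3 settings and 13 to 16 when a drug-treated culture was left out. TOP2A, a topoisomerase that peaks in G2, rose with drug (0.18 ± 0.029 (SE)), as did ORC6 (0.18).

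HMMR, a spindle protein of mitosis, was at 108, 120.2 and 114 RPM at 2 mM and 131, 134 and 129 RPM at 40 mM and rose by 0.20 ± 0.039 (SE, adjusted p = 0.000328); without drug the difference was −0.093, and the difference between the responses was 0.29 ± 0.056 (SE, adjusted p = 0.00249). PRC1, which bundles the spindle midzone, was at 103, 101 and 102 RPM at 2 mM and 121, 115 and 118 RPM at 40 mM and rose by 0.20 ± 0.04 (SE). Their cultures at 40 mM were all above those at 2 mM. KIF20B (0.17), KIF14, KIF18A and KIF20A are kinesin motors, TTK and NDC80 act at kinetochores, FOXM1 (0.13) drives mitotic transcription, and with ASPM and the cyclins CCNA2, CCNB1 and CCNB2 (0.12 for CCNB1) they make up the other rises. The call of CCNB1 was lost without 2 mM replicate 1 or 40 mM replicate 3. The count of rises was 8 without 40 mM replicate 2, 24 after quantile normalization and 25 with library totals only; that of called differences was 5 to 11 when a culture was left out. MKI67, a marker of proliferating cells, had 0.045 ± 0.037 (SE) and did not pass. Replication checkpoint and repair genes had 8 rises and 1 fall among 39, among them TIMELESS (0.28), a fork protection factor. In this list 14 rose with library totals only and 5 after trend removal. Between 3 and 6 rose when a culture was left out, with 3 without 2 mM replicate 3 and 4 without 2 mM replicate 1 or 2 or 40 mM replicate 1 or 2.

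**Figure D4:**
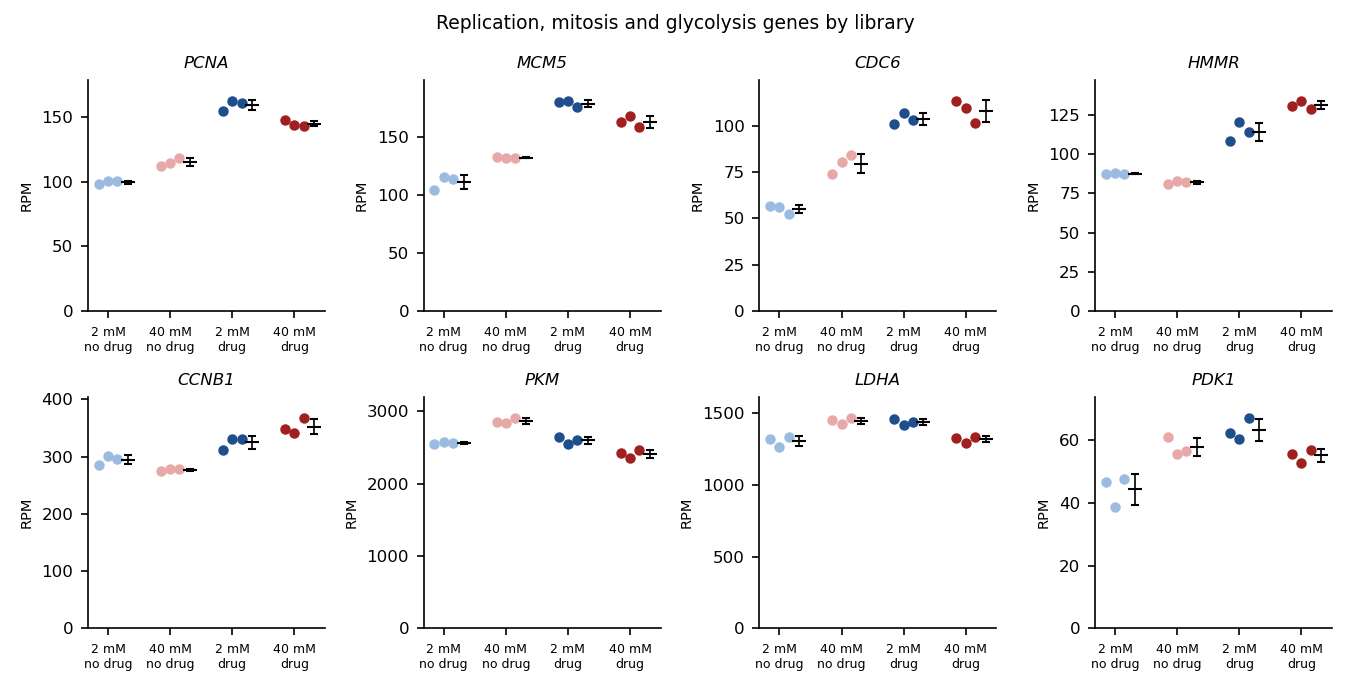
Expression (RPM, axis from 0) of 8 replication, mitosis and glycolysis genes in each of the 12 libraries; points are libraries, and the bar beside each group is its mean with SD (n = 3). PCNA, MCM5, PKM, LDHA and PDK1 are higher at 40 mM than at 2 mM without drug and lower with drug, and CDC6 is higher at 40 mM without drug and overlaps with drug.

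Glycolysis genes, too, differed in their response with and without drug. Of 29 genes of glucose uptake and glycolysis, 2 rose and 12 fell with drug (median −0.11), 11 rose and 2 fell without (median 0.091), and the difference was called in 15, 13 of them negative and 2 positive. PKM, pyruvate kinase, was at 2651, 2555 and 2603 RPM at 2 mM and 2418, 2352 and 2459 RPM at 40 mM with drug, a difference of −0.11 ± 0.026 (SE), and had 0.16 without; the difference between both was −0.27 ± 0.036 (SE, adjusted p = 4.71e-05). LDHA, which turns pyruvate into lactate, was at 1458, 1417 and 1434 RPM at 2 mM and 1328, 1294 and 1332 RPM at 40 mM (−0.12 ± 0.026 (SE)) against 0.15 without drug, a difference of −0.27 ± 0.037 (SE, adjusted p = 6.37e-05). In both genes the groups were apart in opposite orders. PDK1, a kinase that shuts pyruvate out of mitochondria, had −0.19 with drug and 0.38 without (−0.57 ± 0.085 (SE, adjusted p = 0.00012)). SLC2A1, the glucose carrier GLUT1, was at 122, 109.7 and 115 RPM at 2 mM and 111, 114 and 116 RPM at 40 mM with drug, where the groups overlapped, and rose by 0.37 without (−0.40). ENO1 (−0.27), GAPDH (−0.21), PFKP (−0.18) and the lactate exporter SLC16A3 (−0.33) fell with drug, and SLC2A3, a second glucose carrier, fell by −0.42 on this scale; ARRDC3 (0.27) and PDK4 (0.47) rose. The falls with drug of PKM and LDHA were lost under quantile normalization, library totals only and trend removal, where 6, 6 and 7 genes of the list fell, and that of PDK1 with library totals only and without 2 mM replicate 3 or 40 mM replicate 2. The rise of PDK4 was lost without 2 mM replicate 2. The falls of GAPDH and ENO1, and the called differences between the responses of GAPDH and ENO1, were lost under quantile normalization. The list held 2.18% ± 0.042 (SD, n = 3) of reads at 2 mM and 2.02% ± 0.057 at 40 mM (exact two-sided permutation p = 0.1, the smallest possible).

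**Figure D5:**
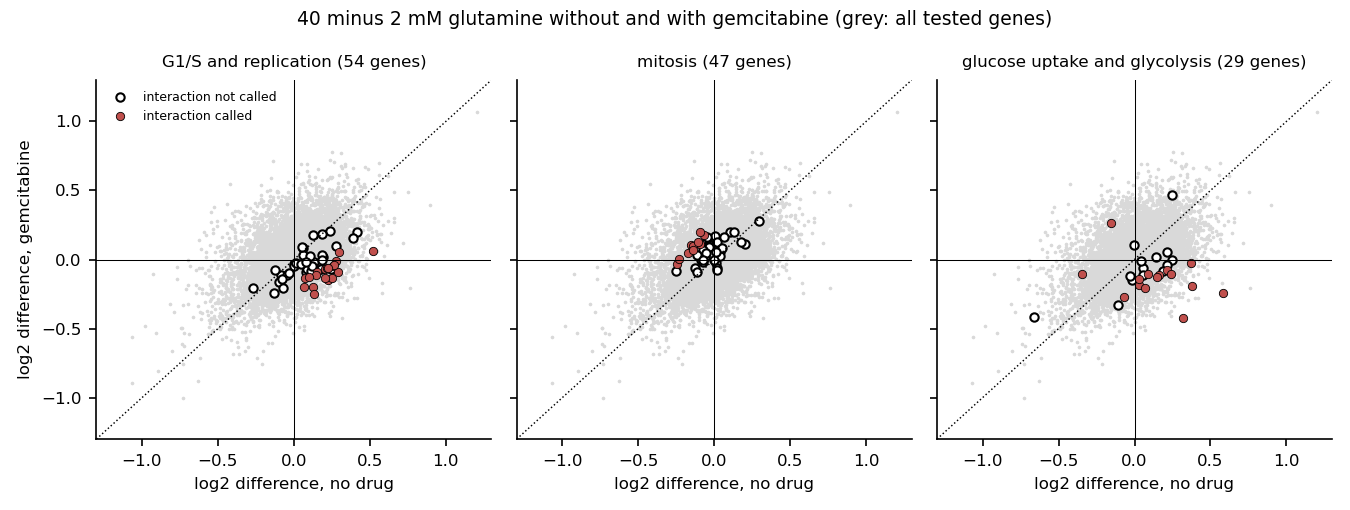
Log2 difference between 40 and 2 mM glutamine without drug (x axis) and with gemcitabine (y axis) for genes of G1/S and replication, mitosis, and glucose uptake and glycolysis; filled red points had a called difference between both responses, open points did not, grey points are all 12789 tested genes, and the dotted line marks equal responses. The filled points of replication, and all but 2 of those of glycolysis, lie below the line, and those of mitosis lie above it.

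Genes that handle gemcitabine moved separately. SLC29A1, the nucleoside carrier ENT1 through which the drug enters, was at 128, 135 and 128 RPM at 2 mM and 105, 108 and 100.04 RPM at 40 mM, a difference of −0.32 ± 0.041 (SE, adjusted p = 5.21e-07); without drug it had −0.066, and the difference between the responses, −0.26 ± 0.058 (SE, adjusted p = 0.012), was lost without 2 mM replicate 2. DCK, the kinase that activates the drug, was at 22.4, 23.2 and 24.5 RPM at 2 mM and 25.5, 28.9 and 30.7 RPM at 40 mM and rose by 0.27 ± 0.082 (SE, adjusted p = 0.0176), with the groups apart, but its call was lost without 2 mM replicate 1 or 2 and without 40 mM replicate 2 or 3. The export pump ABCC5 rose (0.17) and thymidine kinase TK1 fell (−0.20), a call lost after trend removal. RRM2, a subunit of the ribonucleotide reductase that gemcitabine inhibits, was at 395, 406 and 404 RPM at 2 mM and 401, 402 and 383 RPM at 40 mM, with overlapping groups (−0.023), and rose by 0.24 without drug (−0.27 ± 0.044 (SE, adjusted p = 0.000386)). RRM1 (−0.054 ± 0.032 (SE)) and CDA (−0.14 ± 0.18 (SE)), the deaminase that inactivates the drug, did not pass. Of 35 p53 targets and apoptosis regulators 3 rose and 3 fell (8.57% each way, against 8.62% and 13.0% of all tested genes), and 1 rose without 40 mM replicate 2 or 40 mM replicate 3. MDM4 (0.46), an inhibitor of p53, and TP53INP1 rose. FDXR (−0.42), a mitochondrial reductase, and the survival gene BCL2L1 (−0.31) fell. CDKN1A had −0.16 ± 0.15 (SE) without passing.

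Mitochondrial genes fell in 3 lists. Of 33 genes of mitochondrial import and mtDNA expression, 19 fell and none rose (median −0.14), with TIMM13, an import chaperone, at 40.4, 37.6 and 40.5 RPM at 2 mM and 29.4, 27.8 and 28.8 RPM at 40 mM (−0.45 ± 0.059 (SE)) and both groups apart; PHB (−0.23), LRPPRC (−0.17) and TOMM40 (−0.20) followed, with the call of LRPPRC lost under quantile normalization. Of 70 nuclear genes of the respiratory chain, 25 fell and none rose (median −0.089), with 15 falls without 2 mM replicate 3. Of 13 mitochondrially encoded genes 8 fell and none rose (median −0.20), led by ND3, a subunit of complex I, at 426, 487 and 498 RPM at 2 mM and 349, 379 and 344 RPM at 40 mM (−0.39 ± 0.046 (SE)). That count was 5 without 2 mM replicate 2, 2 mM replicate 3 or 40 mM replicate 3, 3 with robust moderation, 2 after quantile normalization and 1 after trend removal. The mitochondrially encoded share of reads was 4.30% ± 0.12 (SD, n = 3) at 2 mM and 4.15% ± 0.28 at 40 mM (exact two-sided permutation p = 0.6). With library totals only, 11 import genes and 14 respiratory chain genes fell, and 16 of the latter after quantile normalization and 10 after trend removal.

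Of 35 splicing regulators, 16 fell and 5 rose (median −0.065). Among the falls, SRSF1, an SR protein, was at 479.8, 489 and 475 RPM at 2 mM and 391, 398 and 384 RPM at 40 mM (−0.30 ± 0.03 (SE, adjusted p = 7.41e-09)), and TRA2A (−0.29), PTBP1 (−0.21) and HNRNPA2B1 (−0.20) followed, the last lost under quantile normalization. Rises included 3 CLK kinases, which phosphorylate SR proteins. CLK4 was at 5.16, 5.16 and 5.52 RPM at 2 mM and 8.11, 8.82 and 7.94 RPM at 40 mM and rose by 0.56 ± 0.11 (SE, adjusted p = 0.000358), CLK3 rose by 0.29 and CLK1 by 0.23, the last lost without 40 mM replicate 1 and after trend removal. SRSF6 was at 207, 214 and 212 RPM at 2 mM and 208, 206 and 200.1 RPM at 40 mM with drug, where the groups overlapped, and rose by 0.35 without, a difference of −0.40 ± 0.048 (SE, adjusted p = 7.26e-06). After quantile normalization 8 of the list rose and 8 fell, and with library totals only 9 rose and 10 fell. Only 3 rose without 2 mM replicate 1, 40 mM replicate 1 or 40 mM replicate 2.

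Organelle genes of the secretory and degradative routes rose beside the ER genes. Of 38 lysosome and autophagy genes, 11 rose and 1 fell (median 0.055): the protease CTSD was at 851, 806 and 827 RPM at 2 mM and 898, 894 and 936 RPM at 40 mM (0.14 ± 0.028 (SE)), and GRN (0.16), HEXA (0.20), GLB1, NPC2, PSAP and the proton pump subunits ATP6V1A and ATP6V1H rose, while TFE3 (−0.20), a factor that drives lysosome genes, fell. Without 2 mM replicate 2, 6 rose. Of 41 secretory pathway and Golgi genes 7 rose and none fell (median 0.034); SLC33A1, the carrier of acetyl-CoA into the ER, was at 38.3, 43.0 and 40.2 RPM at 2 mM and 53.9, 56.8 and 55.2 RPM at 40 mM (0.44 ± 0.053 (SE)), and the sorting receptor SORT1 was at 39.3, 43.6 and 41.3 RPM at 2 mM and 55.7, 55.8 and 56.3 RPM at 40 mM (0.43 ± 0.06 (SE)), both with groups apart. More rose under other scalings: 15, 19 and 14 secretory genes after quantile normalization, library totals only and trend removal, and 19 and 17 lysosome genes under the last 2. Among antioxidant genes falls outnumbered rises with the deposited scaling: of 28 genes of NRF2, glutathione and iron, 11 fell and 1 rose (median −0.077). The metallothionein MT1E was at 529, 546 and 537 RPM at 2 mM and 420.2, 439 and 427 RPM at 40 mM (−0.33 ± 0.038 (SE)), TKT, of the pentose phosphate pathway, was at 515, 481 and 505 RPM at 2 mM and 418, 424 and 420.3 RPM at 40 mM (−0.25 ± 0.028 (SE)), and TXNRD1 fell (−0.18). TFRC, the transferrin receptor that imports iron, was at 610.1, 609 and 609.8 RPM at 2 mM and 705, 701 and 682 RPM at 40 mM and rose by 0.19 ± 0.029 (SE). That balance depended on scaling: 3 rose and 6 fell after quantile normalization, 5 rose and 7 fell with library totals only, and 6 rose and 5 fell after trend removal.

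The responses with and without drug, which share no library, overlapped in part. Of the 2765 genes called with drug, 1079 (39.0%) were also called without, which is 48.1% of the 2242 called without. Over all tested genes, 21.6% were called with drug, and 8.41% rose and 9.12% fell without. Of the 1079 shared genes, 393 rose in both, 657 fell in both and 29 went in opposite directions, 10 of them higher with drug and lower without. Across all tested genes, which are not independent replicates, Pearson's r between both sets of differences was 0.48. Among the largest changes with drug, the differences without drug were 1.204 for H2BC12, 0.56 for TSPYL2, −0.73 for TNS4 and −0.90 for DHRS2. The called opposite pairs included, beside PCNA and PDK1, the exon junction helicase EIF4A3 (−0.14 with drug and 0.16 without) and the bicarbonate carrier SLC4A7 (0.18 and −0.15); the call of EIF4A3 with drug was lost with library totals only. SLC20A1, a phosphate carrier, had the smallest p of the difference between the responses: it rose with drug, at 246, 236 and 237 RPM at 2 mM and 261, 265 and 259 RPM at 40 mM, and had −0.30 without (0.43 ± 0.045 (SE, adjusted p = 4.66e-07)).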

How the data were processed

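RNA-seq of 12 MIA PaCa-2 libraries was used in 4 groups of 3. The authors deposited 1 table of log2 values for 15090 gene symbols; for the aligner, counting program, strand, build and annotation the authors used, nothing is given in the sources used here. Worked out from the values, each deposited entry equals log2(RPM + 1), with libraries scaled by factors identical to TMM factors (drug-treated libraries: 0.988 to 0.991 at 2 mM, 1.026 to 1.029 at 40 mM). RPM values were whole multiples of 1 read in 100% of cases within 0.05 read, so reads were recovered. Of the symbols, 14189 are current, 352 older and 549 matched neither.

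Genes with at least 1 RPM in at least 3 libraries (12789) entered limma 3.58.1 in R 4.3.3, run on the deposited log2 values with 4 group means, with a mean-variance trend, two-sided tests and Benjamini-Hochberg adjustment at 0.05. Count models were not run on a log2 table; voom weights on the recovered reads were an alternative. The difference between responses is the interaction of glutamine and drug. Gene lists (52) and members were chosen with earlier results of these data known. Named genes are the 12 largest rises and 12 largest falls with separate groups and at least 5 RPM, up to 4 members by p of each list with at least 3 calls, the 12 smallest p of the interaction, up to 8 genes with opposite calls, and a fixed set of transport, drug and stress genes; other genes were added to complete a list after their values were seen. Some genes are not reported here, but stay in the fits and the list counts. Replicate pairs differed by more than sampling noise (chi-square over degrees of freedom 2.42 to 4.42), and replicate p-values measure the spread between these cultures. On simulated reads with 200 of 12789 genes changed, 65% of 1.2-fold and 93% of 1.5-fold changes were recovered in this comparison (interaction 40% and 84%). The median simulated SE was 0.054 against 0.069 in the data, so these recovered shares run high. In the simulation 7.6% of calls were false. That share depends on how many genes change and does not carry over to the data. Alternatives were voom, quantile normalization, library totals only, a pseudocount of 0.25, no filter, a filter of 5 RPM, the 6 drug-treated libraries alone, robust moderation, the replicate block, removal of trends with level, GC content and length, and leaving out each drug-treated culture. Promoters came from RefSeq (GRCh38.p14). GC content and lengths came from GENCODE, with the longest transcript under each gene name. Figures were drawn with matplotlib 3.10.9.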

Additional observations from a re-analysis of the deposited data

Results flagged for a closer look

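For 41 genes, those named by the stated rule and IFITM1, the glutamine response with gemcitabine differed from that without by limma's interaction test (adjusted p under 0.05, 3 libraries in each of 4 groups); the values below are the response with drug minus the response without, on the log2(RPM + 1) scale. No explanation was tested for them. Of these, 13 were positive and 28 negative. All 41 kept their sign under the 15 alternatives that allow this test, and 26 kept the call in all 15. The weakest were EIF5A, GNL3, KRT8, ATP6, MYC, TRIM25, TXNIP and DDX60, whose calls ended in several alternatives; without single drug-treated cultures, 32 (2 mM replicate 2) to 38 (40 mM replicate 2) of the calls were kept.

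Among interferon and RNA sensor genes, IFIT1 differed by 0.413, DDX60 by 0.459, IFITM1 by 0.315 and TRIM25 by −0.195. Replication and nucleotide genes were negative, with PCNA at −0.344, MCM5 at −0.383, MCM4 at −0.27, CDC6 at −0.458, CHAF1A at −0.383, UHRF1 at −0.318, RRM2 at −0.268, TK1 at −0.327 and the nucleoside carrier SLC29A1 at −0.259; the mitotic gene HMMR was at 0.292. Glucose metabolism genes were negative as well, with PDK1 at −0.572, SLC2A1 at −0.4, PKM at −0.271, LDHA at −0.271, GAPDH at −0.276, ENO1 at −0.206 and PFKP at −0.217, while TXNIP, an inhibitor of glucose uptake, was at 0.238. The called differences of GAPDH and ENO1 ended under quantile normalization.

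Growth and RNA genes gave MYC −0.18, GNL3 −0.197, EIF5A −0.139, EIF4A3 −0.294, SRSF1 −0.239 and SRSF6 −0.396, against 0.265 for EIF4A2. Mitochondrial genes gave ND3 −0.295, ATP6 −0.207 and TOMM40 −0.261. Carriers gave SLC20A1 0.43, SLC33A1 0.324 and SLC4A7 0.335. The other values were 0.437 for LOC101930276, 0.442 for ZNF780A, 0.433 for SAT1, which breaks down polyamines, 0.326 for UBALD2, −0.321 for DHCR7, the last enzyme of cholesterol synthesis, and −0.143 for KRT8.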

How the results depend on the processing

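Counts of rises and falls kept within 1.5 times their main value (1102 and 1663) under all alternatives except library totals only, which gave 2017 rises and 941 falls and moved the median over all genes to 0.049. The split also moved to 1245 rises and 1239 falls after quantile normalization and to 1223 and 1209 after removing trends with level, GC content and length. Leaving out 1 drug-treated culture gave 767 to 860 rises, 1291 to 1437 falls and 155 to 263 interaction calls, against 281; the interaction count was 155, 157 and 180 without 2 mM replicates 1, 2 and 3, and 174 without 40 mM replicate 1. Fewer samples enter these fits. Of 220 genes named by the stated rule and called with drug, 197 (quantile normalization) to 220 kept their call. The difference of GAPDH was 0 under quantile normalization (adjusted p = 1). That setting gives genes of equal rank the same value in every library, so a gene that keeps its rank differs by 0. Ranks of single genes are not given here. The sign turned for FASN (0.022, adjusted p = 0.574) and PKM (0.019, adjusted p = 0.61) after trend removal, and the cause was not tested. With voom on recovered reads 1115 rose and 1696 fell.

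Replicate numbers do not pair the cultures: deviations of cultures with the same number correlated at 0.035, 0.048 and −0.020. With the replicate block 1114 genes rose and 1672 fell, with 306 interaction calls, and all 220 of those calls were kept; of other genes the text names, STAT5B and CCNB2 lost theirs. The effect of depth was not tested, and 2301 genes below 1 RPM in most libraries were not tested.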

Other observations

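Some further gene groups are given for drug-treated cells, beside 8.62% higher and 13.0% lower over all tested genes. Of 22 genes of fatty acid synthesis and desaturation, 6 fell and none rose, among them the elongase ELOVL1 (−0.25), ACSL1 (−0.28), which activates long fatty acids, and the desaturase gene FADS3 (−0.28). With library totals only, 3 fell. Cholesterol genes had 2 rises (7.41%) and 5 falls (18.5%) among 27. There was no rise without 2 mM replicate 2, 1 rise without 40 mM replicate 3, and 3 rises and 2 falls with library totals only. The glycosylation genes that rose or fell included the O-GlcNAc transferase OGT at 0.22 and UAP1, which makes UDP-GlcNAc, at −0.18. Chromatin genes had 5 rises (10.2%) and 8 falls (16.3%) among 49, shares near those of all genes. They had 9 rises and 4 falls with library totals only, and 5 and 5 under quantile normalization or trend removal. CBX5, the heterochromatin protein HP1 alpha, was at 83.3, 80.9 and 77.6 RPM at 2 mM and 114, 110.4 and 105 RPM at 40 mM and rose by 0.44 ± 0.047 (SE, adjusted p = 2.21e-08), and HMGA1, which bends DNA, had −0.28. Hypoxia genes had 2 rises and 2 falls among 19 (10.5% each way, median 0.0086), shares near those of all genes. ANGPTL4 (−0.55) and ADM (−0.51) fell, the former losing its call with robust moderation. No hypoxia gene rose without 2 mM replicate 2 or 40 mM replicate 1, and 4 rose after quantile normalization or with library totals only.

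Some classes were counted after their values had been seen. Of 391 numbered zinc finger genes 40 rose (10.2%) and 9 fell (2.30%), against 8.62% and 13.0% of all tested genes (median 0.055). The share of rises was thus near that of all genes. Their number was 22 without 2 mM replicate 3, 26 after trend removal and 63 with library totals only. Of 762 long non-coding RNAs 41 rose (5.38%, below the share over all genes) and 22 fell, with 25 rises without 2 mM replicate 1, 22 after trend removal and 26 with the 5 RPM filter. Their share of reads was 0.641% ± 0.0070 (SD, n = 3) at 2 mM and 0.682% ± 0.0042 at 40 mM, where 3 against 3 cultures allow no exact permutation p below 0.1. Of 14 tested histone genes 4 rose and 2 fell (2 and 2 with the 5 RPM filter), and of 10 complement genes 4 rose and none fell.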
